A study of Mus musculus with 8 samples.

Results

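In this study 9 genes of the red cell were followed across CD4+ T cell samples of mice: Slc4a1, Epb42, Rhd, Cldn13 and Slc38a5 of the cell membrane, Alas2 of haem synthesis, the globin chaperone Ahsp, the carbonic anhydrase Car2 and the nuclear protein Hemgn. They were taken by gene name from the scanner files, where 12 of 56605 probes read these 9 of 37008 named genes, and Epb42 stood under its older name, Epb4.2. All 9 genes had a probe that passed the filter on dim probes, against 21519 of all genes, and 11 of the 12 probes passed. All animals were C57BL/6 mice. Each was given transgenic CD4+ T cells whose receptor recognises ovalbumin (OVA), and was immunised with dendritic cells carrying an OVA peptide. The 4 groups of 2 arrays were tumour-bearing mice given an antibody that blocks IL-6 receptors (anti-IL-6R), tumour-bearing mice given control antibody, tumour-free mice given anti-IL-6R and tumour-free mice given control antibody. The tumour was MCA205, a mouse fibrosarcoma line, made to express OVA. The CD4+ T cells were taken 4 days later, and the study asked how a tumour, and blocking the IL-6 receptor in its presence, changes gene expression in them. How pure the isolates were, and how many mice a sample pooled, is not stated in the sources used here, and the 2 arrays of a group came from independent experiments, per the series' design text.

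Red cells form in the marrow, and in mice also in the spleen, from erythroid precursors that switch on globin, haem and membrane genes under the transcription factors Gata1, Klf1 and Tal1. Haem synthesis begins with Alas2, the erythroid 5-aminolevulinate synthase, and free alpha globin is held soluble by Ahsp until it pairs with beta globin. The membrane carries band 3, the anion exchanger encoded by Slc4a1, which is tied to the membrane skeleton through protein 4.2, encoded by Epb42. Young red cells that have lost the nucleus still carry RNA of such genes.

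Levels are given as the log2 of the spot signal minus the 75th percentile of its array, called the scaled log2 level, so that 0 is the 75th percentile of the array's probes. Such a level describes 1 probe across arrays and does not rank genes against each other. The share of probes well above background was 53.1% to 59.8% per array, and the 75th percentile lay between 500 and 527 signal units. All 10 T cell markers, Cd4 and the CD3 chains among them, were measured, and their mean scaled log2 level was 5.97 to 6.11 in tumour-bearing mice given anti-IL-6R, 6.26 to 6.3 in tumour-bearing mice given control antibody, 6.14 to 6.23 in tumour-free mice given anti-IL-6R and 6.03 to 6.2 in tumour-free mice given control antibody. All 8 arrays lay on 1 slide, control antibody in column 1 and anti-IL-6R in column 2, tumour-free samples in rows 1 and 2 and tumour-bearing samples in rows 3 and 4. The place on the slide and the groups therefore cannot be told apart. In RNA of whole isolates, fewer cells of a type and less RNA per cell cannot be told apart either.

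Rhd and Hemgn were each read by more than 1 probe that passed the filter, and their sequences matter for what follows. The dimmer Rhd probe lies at chr4:134441242-134441301 and the brighter at chr4:134452018-134452077, both on the plus strand of mm9, the build named in the file headers. For Hemgn, the brighter probe (chr4:46407248-46407307, minus strand) runs into a dinucleotide repeat of 36 bases, from base 25 to base 60 of the 60-base probe, and the dimmer probe (chr4:46407366-46407425, minus strand) holds no such repeat. Bases 13 to 42 of both Hemgn probes and the whole dimmer Rhd probe are shown 5′ to 3′, with the repeat in capitals.
Hemgn repeat probe: acatagacaataGTGTGTGTGTGTGTGTGT
Hemgn probe without the repeat: ggtttcactgaaacactgcagcaatcacta
Rhd dimmer probe: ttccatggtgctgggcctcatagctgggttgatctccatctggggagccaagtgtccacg

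The other members were read by probes at chr11:102210256-102210315 (Slc4a1, minus strand), chr2:120844440-120844499 (Epb42, minus strand), chr5:135390710-135390769 (Cldn13, minus strand), chrX:7857226-7857285 (Slc38a5, plus strand), chrX:147004993-147005052 (Alas2, plus strand) and chr3:14900206-14900265 (Car2, plus strand), all in mm9. The Ahsp probe has no position in the files, and no gene model of that build was used here to place probes in exons or untranslated regions. A second Epb42 probe, at chr2:120849386-120849445, was well above background on 1 array only, replicate 3 of tumour-bearing mice given control antibody, and was not tested.

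Promoters of 5 of the 9 genes were in the RefSeq table of the GRCm38.p6 build, each with 250 bases before the transcript start. They were searched on both strands for the binding motif of GATA factors (AGATAA, where the first letter may also be T and the last may also be G) and for CACCC, the core bound by Klf1. A GATA motif was present in 4 of the 5 (Alas2, Rhd, Hemgn and Epb42), and in 26.5% of all 32851 promoters in the table. CACCC was present in 3 of the 5 (Alas2, Rhd and Slc38a5), and in 52% of all. The promoters of Alas2 (chrX:150547167-150547416, plus strand), Rhd (chr4:134864286-134864535, plus strand) and Hemgn (chr4:46404184-46404433, minus strand) are shown because each holds a GATA motif near the start. Capitals mark the motifs in the direction in which they were found, so TTATCT is AGATAA and GGGTG is CACCC on the other strand.
Alas2: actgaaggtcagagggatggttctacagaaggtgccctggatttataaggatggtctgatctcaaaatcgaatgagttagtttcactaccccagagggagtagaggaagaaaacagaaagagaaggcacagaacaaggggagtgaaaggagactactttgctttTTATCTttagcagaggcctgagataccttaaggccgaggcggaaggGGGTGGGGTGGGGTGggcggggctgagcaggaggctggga
Rhd: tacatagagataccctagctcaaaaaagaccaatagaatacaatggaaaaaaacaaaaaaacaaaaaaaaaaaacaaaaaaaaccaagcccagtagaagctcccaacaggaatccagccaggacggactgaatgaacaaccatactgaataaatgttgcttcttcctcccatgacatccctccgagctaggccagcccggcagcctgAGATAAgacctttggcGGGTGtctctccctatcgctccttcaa
Hemgn: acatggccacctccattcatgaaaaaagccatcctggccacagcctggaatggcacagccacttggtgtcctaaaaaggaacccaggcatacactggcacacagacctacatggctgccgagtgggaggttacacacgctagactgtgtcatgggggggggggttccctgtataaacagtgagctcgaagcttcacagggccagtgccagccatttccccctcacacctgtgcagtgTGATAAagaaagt
In the Alas2 promoter the GATA motif begins 86 bases before the start, ahead of 3 abutting CACCC cores at 40, 35 and 30 bases. In Rhd the GATA motif begins 43 and the CACCC core 27 bases before the start. The Hemgn motif begins 13 bases before the start, and that of Epb42 begins 226 bases before it. A match describes these letters and is not a shown binding site.

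**Figure D1:**
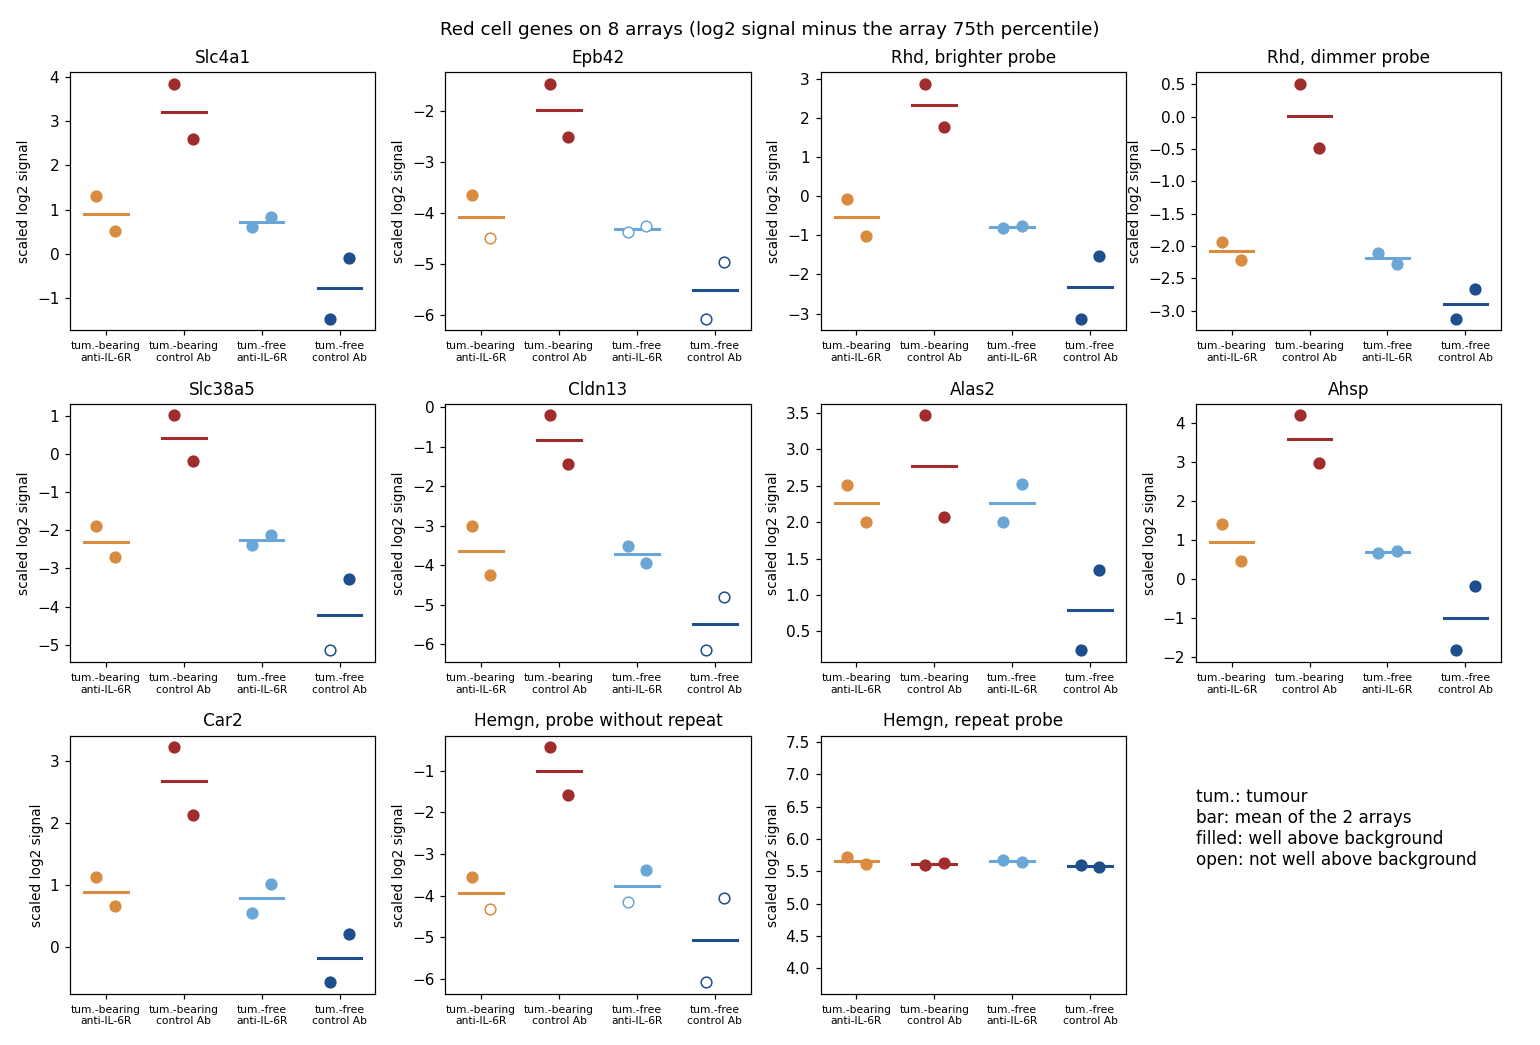
Scaled log2 level (y axis, each panel with its own range) of 11 probes of the 9 genes on every array, with the 4 groups along the x axis; points are arrays and bars are means of 2. In 10 of the 11 panels, all but the Hemgn repeat probe, the tumour-bearing, control antibody group has the highest mean and the tumour-free, control antibody group the lowest.

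Under control antibody, most of the red cell genes were higher in tumour-bearing than in tumour-free mice, apart from the repeat probe of Hemgn, which differed by 0.03 on the log2 scale. Alas2 was higher by 1.97 but was not called (limma adjusted p = 0.053). Through the brightest probe of each gene, 7 of the 9 were called higher by limma at an adjusted p under 0.05 and none lower, with a median log2 difference of 3.99, while 4.08% of the 21519 genes tested were called higher and 1.91% lower, and the median over all genes was 0.026. With Hemgn read from its probe without the repeat, an alternative chosen after the data were seen, 8 of 9 were called. The 2 called members with a dim group, Cldn13 and Epb42, enter that median at their fitted value, and at their bounds the median was 3.13. Epb42 and the Hemgn probe without the repeat passed the filter only through the tumour-bearing, control antibody group, so a difference was built into their passing. The arrays of both groups did not overlap for 8 of the 9 genes, all higher in tumour-bearing mice, as was the case for 30.0% of all genes. Each control antibody group also enters an antibody comparison below.

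Among the transporters and structural proteins of the membrane, Slc4a1, the band 3 anion exchanger, had scaled log2 levels of 1.3 and 0.52 in tumour-bearing mice given anti-IL-6R, against 3.84 and 2.58 in tumour-bearing mice given control antibody. In tumour-free mice it had 0.6 and 0.84 with anti-IL-6R, against -1.46 and -0.1 with control antibody. Both tumour-bearing, control antibody arrays lay above all 6 others, and both tumour-free, control antibody arrays lay below all others. Under control antibody the log2 difference, tumour-bearing minus tumour-free, was 3.99 ± 0.5 (SE, 2 arrays a group, limma adjusted p = 0.0061), a 15.9-fold higher level.

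Epb42, whose protein 4.2 anchors band 3, was well above background on 3 arrays. It had -3.65 and -4.49 in tumour-bearing mice given anti-IL-6R, against -1.46 and -2.5 with control antibody. In tumour-free mice it had -4.38 and -4.26 with anti-IL-6R and -6.07 and -4.96 with control antibody, none of them well above background. The order of the groups was as for Slc4a1, but the lower values only bound the level. Epb42 was at least 3.96-fold higher in tumour-bearing than in tumour-free mice under control antibody (measured means -1.98 and -5.51, limma adjusted p = 0.0088), a call that was lost without replicate 3 of the tumour-bearing, control antibody group (limma adjusted p = 0.053).

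Rhd encodes the Rh polypeptide of the mouse red cell membrane. Its brighter probe gave -0.07 and -1.01 in tumour-bearing mice given anti-IL-6R, against 2.88 and 1.77 with control antibody. In tumour-free mice the values were -0.81 and -0.76 with anti-IL-6R, against -3.13 and -1.53 with control antibody. Under control antibody the log2 difference, tumour-bearing minus tumour-free, was 4.66 ± 0.54 (limma adjusted p = 0.0047, 25.3-fold), and the groups did not overlap. The dimmer probe showed the same order of groups with a smaller difference of 2.9 ± 0.31 (limma adjusted p = 0.0033), 7.45-fold.

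Slc38a5 carries glutamine and other neutral amino acids into cells. It had -1.9 and -2.69 in tumour-bearing mice given anti-IL-6R, against 1.01 and -0.18 with control antibody. The tumour-free arrays had -2.38 and -2.12 with anti-IL-6R, against -5.15 and -3.28 with control antibody, where only the second array was well above background. Tumour-bearing, control antibody arrays stood apart at the top, and the log2 difference from tumour-free mice was 4.63 ± 0.6 (limma adjusted p = 0.0066), with its size open to the dim array.

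Cldn13, a claudin found in mouse blood-forming tissue, was not well above background on both tumour-free, control antibody arrays (-6.16 and -4.8). It had -3 and -4.26 in tumour-bearing mice given anti-IL-6R, against -0.21 and -1.45 with control antibody, and -3.52 and -3.94 in tumour-free mice given anti-IL-6R. Tumour-bearing mice thus stood at least 8.76-fold above tumour-free mice under control antibody (measured means -0.83 and -5.48, limma adjusted p = 0.0064).

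Alas2, which makes the first haem precursor, had 2.51 and 2 in tumour-bearing mice given anti-IL-6R, against 3.46 and 2.07 with control antibody. In tumour-free mice it had 2 and 2.52 with anti-IL-6R, against 0.24 and 1.34 with control antibody. The tumour-free, control antibody arrays were the lowest, and the other 3 groups overlapped. Under control antibody the log2 difference, tumour-bearing minus tumour-free, was 1.97 ± 0.47 and missed the threshold (limma adjusted p = 0.053). Without replicate 4 of the tumour-bearing, control antibody group it was 2.67 and passed (limma adjusted p = 0.023), and without replicate 3 it was 1.28.

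Ahsp, the chaperone of alpha globin, had scaled log2 levels of 1.43 and 0.47 in tumour-bearing mice given anti-IL-6R, against 4.2 and 2.98 with control antibody. In tumour-free mice it had 0.68 and 0.74 with anti-IL-6R, against -1.82 and -0.18 with control antibody. In spot signal, the tumour-bearing, control antibody arrays read 9692 and 4102 units and the tumour-free, control antibody arrays 144.1 and 460.2 units. Every array of the first group lay above every array of the second, with a log2 difference of 4.59 ± 0.56 (limma adjusted p = 0.0054), 24.1-fold.

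Car2, a carbonic anhydrase that red cells and several other cells use to hydrate CO2, had 1.12 and 0.66 in tumour-bearing mice given anti-IL-6R, against 3.23 and 2.14 with control antibody. In tumour-free mice it had 0.54 and 1.02 with anti-IL-6R, against -0.58 and 0.2 with control antibody. It was well above background on all 8 arrays, and the tumour-bearing, control antibody arrays were the highest. Under control antibody it was 7.32-fold higher in tumour-bearing mice (log2 difference 2.87 ± 0.37, limma adjusted p = 0.0069).

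Hemgn encodes hemogen, a nuclear protein of erythroid precursors, and its probes disagreed. Its repeat probe gave 5.56 to 5.72 on all 8 arrays, and under control antibody tumour-bearing minus tumour-free mice was 0.03 ± 0.07 on the log2 scale (limma adjusted p = 0.83). Its probe without the repeat gave -3.55 and -4.32 in tumour-bearing mice given anti-IL-6R, against -0.44 and -1.59 with control antibody. In tumour-free mice that probe gave -4.15 and -3.38 with anti-IL-6R and -6.08 and -4.06 with control antibody, the last pair not well above background. The second probe therefore put the tumour-bearing, control antibody group on top, like the other members. That group stood at least 7.63-fold above tumour-free mice (limma adjusted p = 0.01569). The call was lost when the variance was fitted without an intensity trend (limma adjusted p = 0.054). It was also lost without replicate 3 of the tumour-bearing, control antibody group, where the log2 difference was 3.48. On the whole array, 48 of 56587 probes hold at least 10 TG units in a row. All 48 passed the filter, their median span over the 8 arrays was 0.14 log2 units, against 0.49 for all probes that passed, and none was called in this comparison, in which 5.25% of the 32039 probes were.

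**Figure D2:**
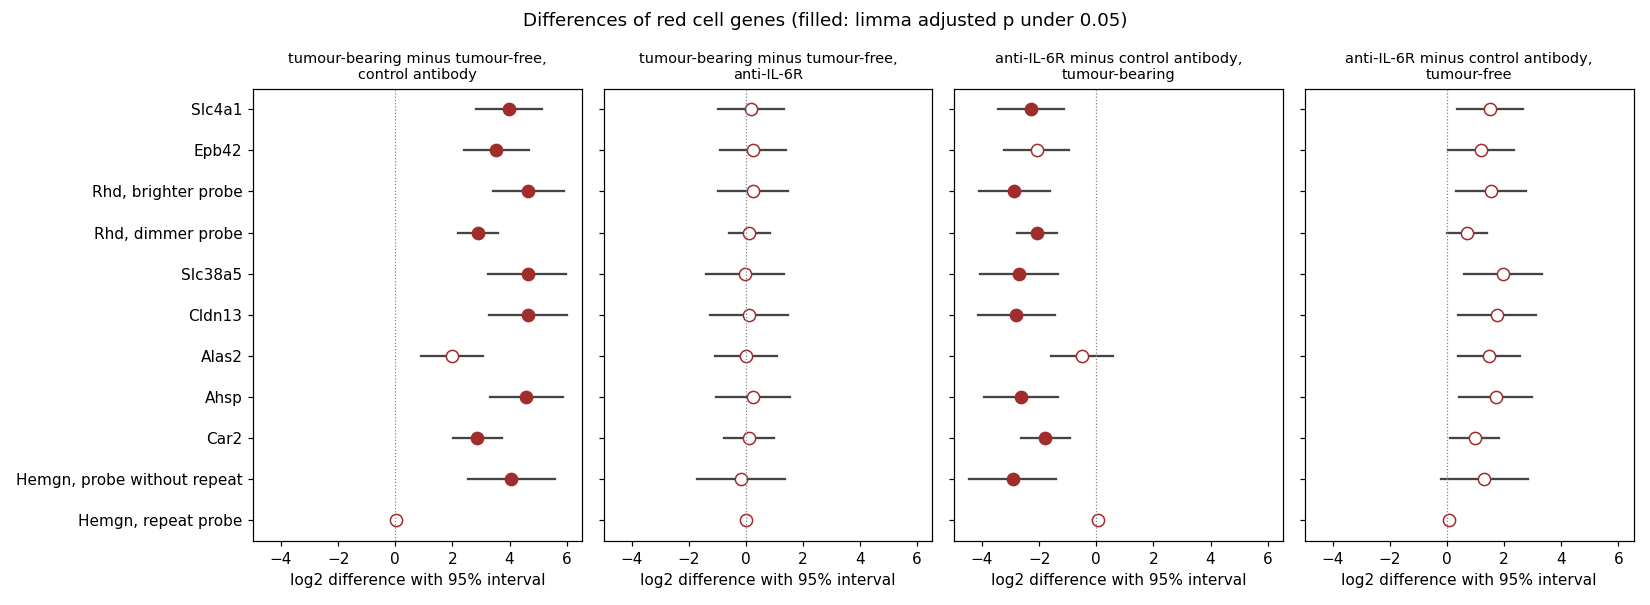
Log2 differences (x axis) with 95% intervals for 11 probes of the 9 genes (rows) in 4 comparisons; filled points passed limma's adjusted p of 0.05. Points lie above 0 for tumour-bearing against tumour-free mice under control antibody, near 0 under anti-IL-6R, below 0 for the antibody in tumour-bearing mice, apart from the Hemgn repeat probe at 0.05, and above 0, none filled, for the antibody in tumour-free mice.

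In tumour-bearing mice, most red cell genes were lower with anti-IL-6R than with control antibody. Of the 9, 6 were called lower by limma through their brightest probe and none higher, with a median log2 difference of -2.3, beside 3.37% of all genes called lower, 1.77% called higher and a median of -0.051 over all genes. With Hemgn read from its probe without the repeat, the alternative chosen after the data were seen, 7 of 9 were called. That probe and Epb42 passed the filter only through the control antibody group of this comparison, so a fall was built into their passing. The arrays did not overlap for 7 of the 9 genes, as was the case for 36.3% of all genes in the lower direction.

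The membrane genes among these were Rhd, which fell by 2.87 on the log2 scale (SE 0.54, limma adjusted p = 0.034), Cldn13, which fell by 2.8 (SE 0.59, adjusted p = 0.044), Slc38a5, which fell by 2.71 (SE 0.6, adjusted p = 0.047), and Slc4a1, which fell by 2.3 (SE 0.5, adjusted p = 0.046). The other 2 called members, Ahsp and Car2, fell by 2.64 (SE 0.56, adjusted p = 0.044) and by 1.79 (SE 0.37, adjusted p = 0.043). In folds, Rhd was 7.3-fold, Ahsp 6.22-fold and Car2 3.46-fold lower with anti-IL-6R. Hemgn through its probe without the repeat differed by -2.92 ± 0.67, and its adjusted p of 0.04982 lay just inside the threshold. Epb42 differed by -2.09 ± 0.5 and lay just outside it (limma adjusted p = 0.055). The sizes for this Hemgn probe and for Epb42 are not exact, because replicate 8 with anti-IL-6R was not well above background. Alas2 differed by -0.51 ± 0.47 with overlapping arrays (limma adjusted p = 0.53).

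These calls were close to the threshold and depended on the fit. Through the brightest probes, no member was called when dim probes were kept in the test (0 of 9, and 0.0265% of all probes in either direction, against 4.27% with the filter) or when the variance was fitted without an intensity trend (0 of 9, and 0.175% of all probes). None was called without replicate 3 of the tumour-bearing, control antibody group (0 of 9, and 1% of all probes) or without replicate 8 of the tumour-bearing, anti-IL-6R group (0 of 9, and 1.01% of all probes). The dimmer Rhd probe was not called when dim probes were kept (limma adjusted p = 0.057) or without the intensity trend (0.074). Its log2 difference was -1.57 without replicate 3 and -1.94 without replicate 8. Fewer members were also called without replicate 7 of the tumour-bearing, anti-IL-6R group (3 of 9) and after quantile normalization (2 of 9), where the share of all probes called was 6.16% and 4.48%.

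Anti-IL-6R in tumour-free mice gave no call among the 9 genes by limma, whose adjusted p ran between 0.54 and 0.76. At an unadjusted p under 0.05, 8 of the 9 passed, and so did 1791 of all 21519 genes, of which 0.0186% were called higher and 0.00929% lower after adjustment. All 9 log2 differences were above 0, with a median of 1.5 and a range of 0.08 to 1.96, and the arrays did not overlap for 9 of 9 genes, a pattern that 24.9% of all genes showed in that direction. Hemgn enters here through its repeat probe, and through its other probe the arrays did overlap. Epb42 was not well above background on any array of this comparison, so its difference is not a measured one. Cldn13 was not well above background on the control antibody arrays and was at least 1.17-fold higher with anti-IL-6R. Both genes are among the 8 that passed the unadjusted p, and both enter the other counts and the median. Slc38a5 differed by 1.96 ± 0.6, a size that is not exact because replicate 1 with control antibody was not well above background. Ahsp differed by 1.71 ± 0.56, Rhd by 1.55 ± 0.54 and Alas2 by 1.47 ± 0.47. The size of these differences rested on the pair of tumour-free, control antibody arrays: without replicate 1 they were 1.03, 0.89, 0.75 and 0.92 in the same order of genes, and without replicate 2 they were 2.89, 2.53, 2.35 and 2.02. The means here share the tumour-free, control antibody arrays with the host comparison above.

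With anti-IL-6R in both hosts, levels in tumour-bearing and tumour-free mice overlapped for all 9 genes, while over all genes the arrays did not overlap for 15.7% in the higher and 34.4% in the lower direction. The log2 differences ran between -0.04 and 0.25, with a median of 0.11, and no member was called by limma or passed an unadjusted p of 0.05 (0 of 9). Of all genes, 8.44% passed that unadjusted p, and 0.242% were called higher and 0.0325% lower. For Ahsp the difference was 0.24 with a 95% interval of -1.04 to 1.53, for Slc4a1 it was 0.19 (-0.96 to 1.35) and for Car2 it was 0.11 (-0.75 to 0.97). The intervals of Ahsp and Slc4a1 leave room for differences of more than 1 log2 unit, and that of Car2 reaches 0.97. The values therefore do not show that the hosts were alike.

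The antibody's effect in tumour-bearing mice minus its effect in tumour-free mice was below 0 for all 9 genes, with a median of -3.8 on the log2 scale. None was called by limma (0 of 9), 8 of 9 had an unadjusted p under 0.05, as did 25.9% of all genes, and over all genes 0.0279% were called lower and 0.00465% higher. Rhd had -4.41 ± 0.76 (limma adjusted p = 0.081), Ahsp -4.35 ± 0.79 and Slc4a1 -3.8 ± 0.71 (both 0.082), and Alas2 had -1.98 ± 0.67 (0.14). Without replicate 1, a tumour-free, control antibody array, 2 of 9 were called, and without replicate 4 of the tumour-bearing, control antibody group 1 of 9 was called. The share of all probes called was then 2.45% and 0.388%, against 0.025% with all arrays. The sizes for Cldn13, Slc38a5, Epb42 and the dim Hemgn probe are not exact, because some arrays were not well above background.

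In order of mean level, the tumour-bearing, control antibody group came first for 8 of 9 genes, the groups given anti-IL-6R lay in the middle with overlapping arrays, and the tumour-free, control antibody group came last. Placed on the log2 distance between both control antibody groups (counted from the tumour-free towards the tumour-bearing mean), the tumour-bearing, anti-IL-6R mean lay at 42% for Ahsp, 38% for Rhd, 42% for Slc4a1 and 38% for Car2. The tumour-free, anti-IL-6R mean of the same genes lay at 37%, 33%, 38% and 34%. Alas2 stood at 74% in tumour-bearing and 75% in tumour-free mice given anti-IL-6R. These shares have the control antibody groups in both terms and were not tested.

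The members differed in how closely they followed each other over the 8 arrays. Among the probes well above background on every array, Ahsp spanned 6.02 and the brighter Rhd probe 6.01 log2 units, and the difference between these probes varied by 0.29, the smallest value of any pair. The difference from Ahsp varied by 0.76 for Slc4a1, by 2.21 for Car2, by 2.39 for the dimmer Rhd probe and by 2.97 for Alas2. Both Rhd probes differed from each other by an amount that varied by 2.38, so the near-fixed distance from Ahsp held for 1 of the Rhd probes. The Hemgn repeat probe spanned 0.16 units and followed none of them.

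The arrays of a group also differed in the level of the red cell genes. Between the tumour-bearing, anti-IL-6R arrays, 9 of 9 genes were higher in replicate 7 than in replicate 8, by a median of 0.79 log2 units. In tumour-bearing mice given control antibody, 8 of 9 were higher in replicate 3 than in replicate 4, by a median of 1.2. In tumour-free mice, the median difference between replicates 5 and 6 with anti-IL-6R was -0.12, and replicate 1 lay below replicate 2 for 8 of 9 genes with control antibody, by a median of -1.36. Over all genes the median of such differences was -0.06 to 0.07 in the 4 groups.

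**Figure D3:**
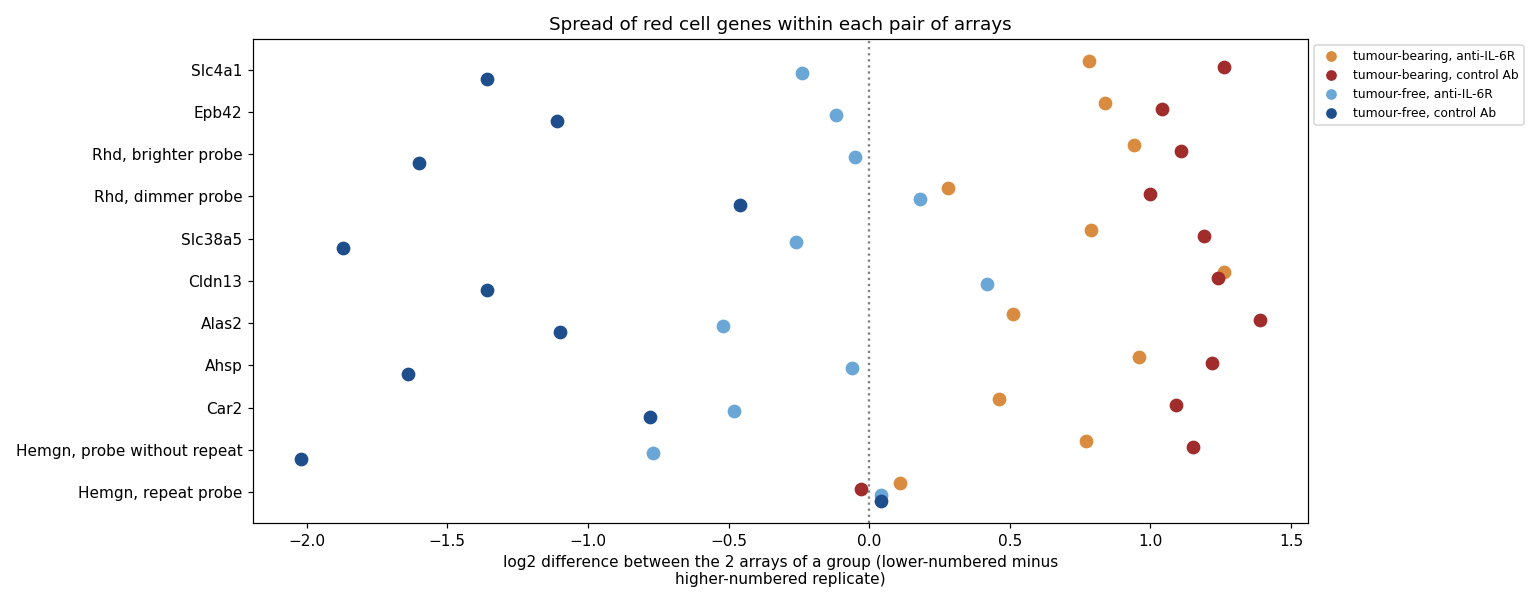
Log2 difference between the 2 arrays of each group (x axis, lower-numbered minus higher-numbered replicate) for 11 probes (rows), coloured by group. Red points sit near 1.2 and dark blue points mostly near -1.4, apart from the Hemgn repeat probe near 0.

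Other genes of the red cell programme were counted in lists without the 9 members. Under control antibody, 8 of 14 genes of haem synthesis and iron uptake were called higher in tumour-bearing than in tumour-free mice (median log2 difference 0.58). So were 8 of 13 transcription factors with the erythropoietin receptor (0.79) and 5 of 16 membrane and skeleton genes (0.79). The same held for 4 of 10 other red cell genes (0.65) and 2 of 7 measured globins of 11 listed (1.7). None was called lower, and over all genes 4.08% were called higher and 1.91% lower. With anti-IL-6R in tumour-bearing mice, 6 of 14, 6 of 13, 4 of 16, 3 of 10 and 0 of 7 of these lists were called lower than with control antibody, and none higher. Over all genes that comparison called 3.37% lower and 1.77% higher. In tumour-free mice the antibody gave no call in any of the 5 lists, beside 0.0186% of all genes called higher and 0.00929% lower. The listed globin Hbq1b passed the filter only through the tumour-bearing, control antibody group, so a difference was built into its passing. How many other listed genes passed only through that group was not counted.

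In the haem list, Abcb10, a mitochondrial transporter needed for haem synthesis, was higher by 1.75 ± 0.24 in tumour-bearing than in tumour-free mice under control antibody (limma adjusted p = 0.0078). Alad, the enzyme that acts after Alas2 in haem synthesis, was higher by 0.7 ± 0.11 (0.015), and the transferrin receptor Tfrc by 0.65 ± 0.11 (0.017). Alad averaged 2.02 in tumour-bearing and 2.08 in tumour-free mice under anti-IL-6R, beside 2.77 and 2.07 with control antibody. With anti-IL-6R in tumour-bearing mice, Alad fell by 0.75 (SE 0.11, limma adjusted p = 0.027) and Abcb10 by 1.41 (SE 0.24, 0.029).

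Of the erythroid regulators, Gata1 was higher by 0.79 ± 0.09 in tumour-bearing than in tumour-free mice under control antibody (limma adjusted p = 0.0037), Tal1 by 3.71 ± 0.45 (0.0055) and Myb, which is needed by early precursors, by 0.56 ± 0.09 (0.012). The size for Tal1 is not exact, because its signal on replicate 1 of tumour-free mice given control antibody was not well above background. Sox6, a silencer of embryonic globin genes, was at least 5.54-fold higher (0.011). With anti-IL-6R in tumour-bearing mice, Gata1 fell by 0.85 (SE 0.09, limma adjusted p = 0.018) and Klf1 by 0.99 (SE 0.19, 0.034).

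Among the globins, Hba-a1 averaged 9 in tumour-bearing mice given anti-IL-6R and 9.09 with control antibody, and 9.05 in tumour-free mice given anti-IL-6R and 8.01 with control antibody. Hbb-b1 averaged 4.48 and 4.64 in tumour-bearing mice, and 4.38 and 2.94 in tumour-free mice, in the same order of antibodies. Hbb-bt was called higher in tumour-bearing than in tumour-free mice under control antibody (1.78 ± 0.4, limma adjusted p = 0.044), and Hbb-b1 missed the threshold (1.7 ± 0.43, 0.062). On the scale between both control antibody groups, the tumour-free, anti-IL-6R mean lay at 96% for Hba-a1, 85% for Hbb-b1 and 79% for Hbb-bt. The same was done for all measured genes outside the members that differed by at least 0.5 between the control antibody groups. Genes with a dim array in either control antibody group were left out, and the anti-IL-6R arrays were not screened in this way. The tumour-free, anti-IL-6R mean lay at 78% to 98% for 5 globins and at -6% to 55% for 8 haem and iron genes. It lay at 11% to 44% for 5 regulators, at -13% to 50% for 4 membrane genes and at 16% to 86% for 4 other red cell genes. Bpgm, at 86%, was the highest of that last list and lay inside the range of the globins. Alad stood at 1%, Abcb10 at 8% and Fech, the last enzyme of haem synthesis, at 55%, and Gata1 stood at 23% and Epor, the erythropoietin receptor, at 44%. Fech, Epor and Bpgm were chosen after their values were seen, as the highest of their lists, and no difference between lists was tested. The adult globin genes are near-identical copies, so a probe of 1 copy may read the others.

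**Figure D4:**
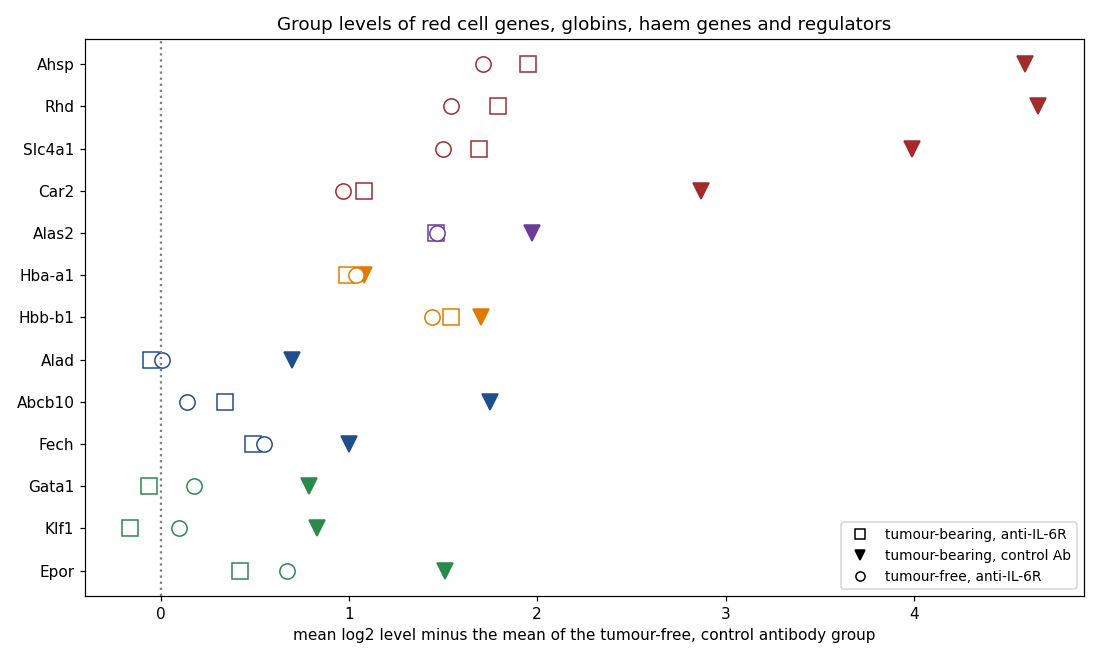
Mean log2 level of 3 groups minus that of tumour-free mice given control antibody (x axis; the dotted line at 0 is that group) for 4 membrane, chaperone and carbonic anhydrase genes, Alas2, 2 globins, 3 haem pathway genes and 3 regulators (rows). Open symbols, the groups given anti-IL-6R, lie close to the filled tumour-bearing, control antibody symbol for the globins, close to 0 for Alad and Klf1, and about midway for Fech.

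Among the 8 genes outside the list whose centred levels over the 8 arrays were nearest to the mean of the 9 members were Tal1, Trim10, Ccdc92b, Aqp1, Fn3k, Hbq1b and 1 unnamed transcript of the array. Likeness was the root mean square difference of the centred scaled log2 levels, which was 0.17 for Tal1, 0.24 for Trim10 and 0.34 for Aqp1. Aqp1 encodes the water channel of the red cell membrane. Among the members, which themselves form this mean, the measure was 0.1 for Epb42, 0.67 for Alas2 and 1.3 for the Hemgn repeat probe. Aqp1 had 0.19 and -0.43 in tumour-bearing mice given anti-IL-6R, against 2.6 and 1.68 with control antibody. Its tumour-free arrays had -0.2 and -0.16 with anti-IL-6R, against -1.22 and -1.23 with control antibody. Under control antibody its log2 difference between the hosts, tumour-bearing minus tumour-free, was 3.37 ± 0.29 (limma adjusted p = 0.0014). Aqp1 was picked for its likeness to the members' profile, so a host difference was built into the choice.

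Among the marker lists of other blood cells, that of neutrophil granules had calls in the direction of the red cell genes. Beside 4.08% of all genes, 8 of 14 neutrophil granule markers were called higher in tumour-bearing than in tumour-free mice under control antibody, with a median log2 difference of 2.18 and none lower. Their summed level, in multiples of the array's 75th percentile, was 56.9 and 38.6 in tumour-bearing mice given anti-IL-6R, 134 and 127 with control antibody, 38.9 and 155 in tumour-free mice given anti-IL-6R and 34.8 and 55 with control antibody. Camp, the granule peptide cathelicidin, was higher by 4.31 ± 0.23 (limma adjusted p = 0.00026) and Mpo, myeloperoxidase, by 3.12 ± 0.19 (0.00043). On the scale between both control antibody groups, the tumour-free, anti-IL-6R mean lay at -2% for Camp and -21% for Mpo, and at -21% to 61% over 8 neutrophil genes. With anti-IL-6R in tumour-bearing mice 7 of the 14 were called lower than with control antibody, beside 3.37% of all genes. In the difference between the antibody effects 4 of 14 were called lower, beside 0.0279% of all genes, Camp with -4.42 ± 0.33 (limma adjusted p = 0.021).

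Beside 1.91% of all genes, 5 of 10 B cell markers were called lower in tumour-bearing than in tumour-free mice under control antibody, with a median of -0.87. Their summed level was 49 and 46 in tumour-bearing mice given anti-IL-6R, 34.5 and 24.9 with control antibody, 47.3 and 48 in tumour-free mice given anti-IL-6R and 43.6 and 58 with control antibody. Cd5, 1 of 10 T cell markers (0.39 ± 0.08, limma adjusted p = 0.04), and Marco, 1 of 12 macrophage markers (1.42 ± 0.16, 0.0045), were called higher, and none of 9 measured platelet markers of 12 listed was. Over all genes 4.08% were called higher. Ppbp, 1 of the platelet markers, was called lower (-0.8 ± 0.17, 0.04). The part of other blood cells in the red cell result was not tested.

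**Figure D5:**
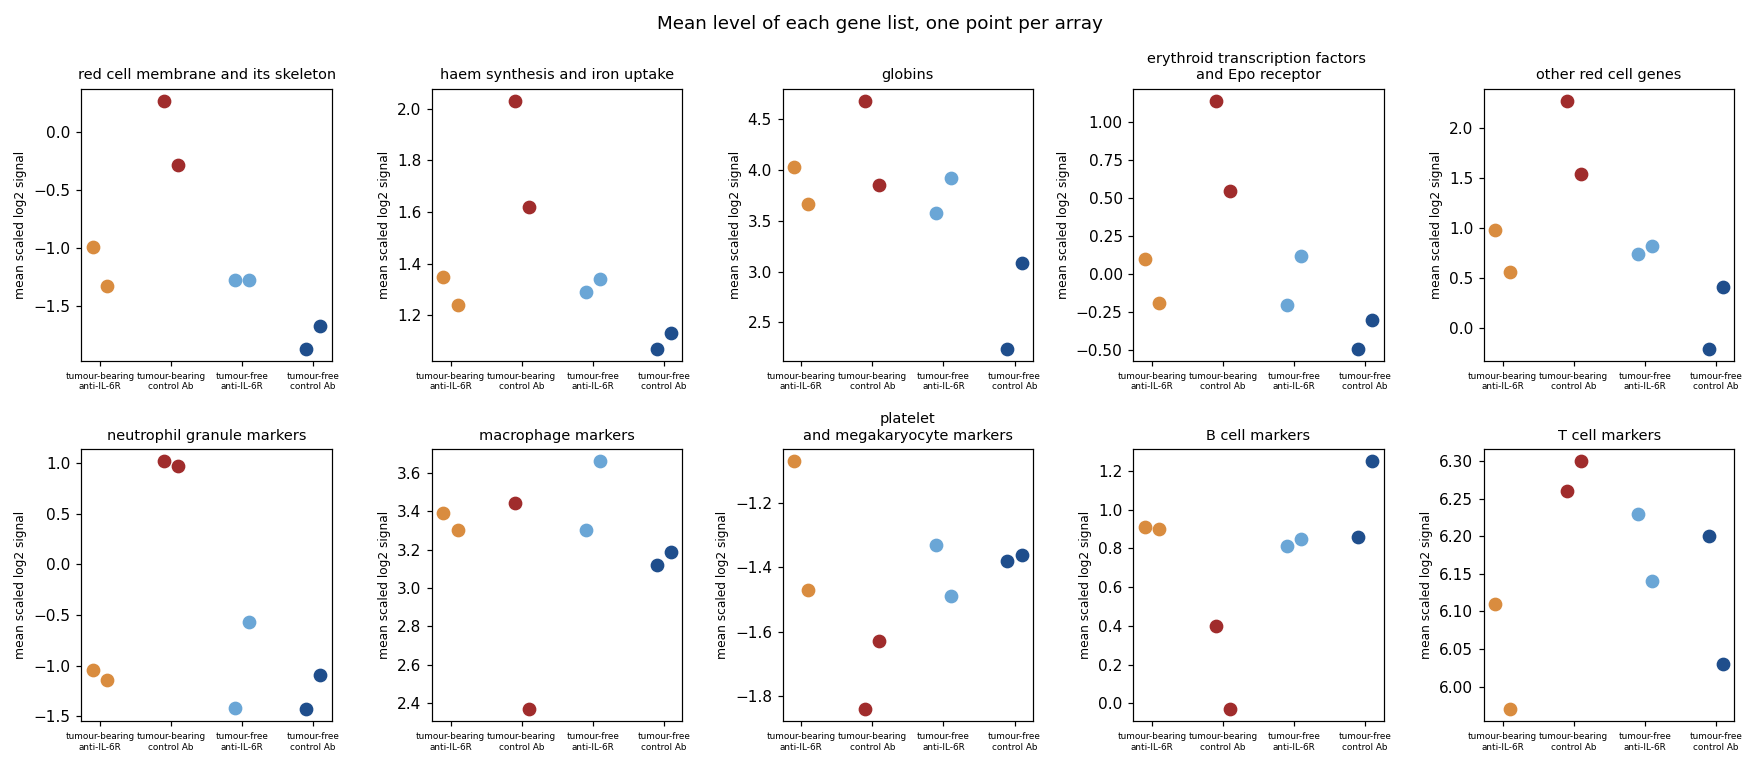
Mean scaled log2 level of the measured genes of 10 lists (panels, each y axis with its own range), 1 point per array, with the 4 groups along the x axis; the red cell lists include the members. The tumour-bearing, control antibody arrays are highest in the 5 red cell panels, apart from 1 array in the globin panel, and in the neutrophil panel, and lowest in the B cell panel.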

How the data were processed

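CD4+ T cell RNA was measured on 8 one-colour Agilent arrays. The deposited scanner files hold intensity values. Per the submitters' processing notes they came from Agilent Feature Extraction, version 10.10.1.1, and per the file headers they are background-subtracted and detrended. The deposited table of values holds log2 values, each column matching the log2 processed signal minus the array's 75th percentile (r = 1, offset at most 0.0081), and served as an alternative; column medians were -3.33 to -3.09, and how it was made is not stated in the sources used here.

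Outlier spots were dropped (60 to 95 per array), spots of a probe averaged, and 18 probes without a usable spot left out. The log2 signal minus the array's 75th percentile was used. A probe stayed in the test (32039 did) where both arrays of some group called it well above background, and each of the 21519 genes was read from its brightest such probe. Names followed RefSeq (GRCm38.p6) for 32994 probes through their accession and for 10744 through a symbol or synonym, and 12867 kept the file's name. The 4 group means were fitted with limma 3.58.1 (R 4.3.3) with an intensity trend, 4 residual degrees of freedom, two-sided, Benjamini-Hochberg over the 32039 probes, in 5 comparisons. "At least N-fold" means that the dim group was raised to its array's lowest well-above-background signal (24.2 to 36.3). The number of arrays, 2 per group, limits the precision.

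The 9 genes, the gene lists and the tests were chosen with earlier results of these data known, so none is independent support. From each list, up to 4 measured genes with the smallest p in a comparison were named, and beside the members the 8 genes nearest to their mean profile. Of the genes this rule gave, 2 are not reported here. Alternatives were other background corrections, normalizations, filters and fits, and leaving out each array. Python 3.11.15, pandas 2.3.3, version 1.17.8 of the package data.table and matplotlib 3.10.9 were also used.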

Additional observations from a re-analysis of the deposited data

How the results depend on the processing

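The count of members called higher in tumour-bearing mice under control antibody (7) was 6 to 8 when each array was left out in turn, and 5 of 6 measured members with probes well above background on all arrays. Counts under anti-IL-6R between hosts, and for the antibody in tumour-free mice, were 0 under every alternative that was run. The count called lower with anti-IL-6R in tumour-bearing mice (6) was 0 without the filter on dim probes, 0 without the intensity trend, 2 with quantile normalization and 0 to 5 when each array was left out. With dim probes kept, 15 of 56587 probes were called in that comparison, against 1369 of 32039, and more probes were then tested. The cause was otherwise not tested. For the difference between antibody effects (0) the range without each array was 0 to 2. The other alternatives, normexp background correction, the deposited value table, 1 probe per gene, array weights and fits of the 2 groups alone, kept these counts within 1.5 times. With Hemgn from its probe without the repeat, leaving out each array gave 6 to 9 and 0 to 6 for the 2 comparisons with calls.

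Signs turned only for small differences. Between hosts under anti-IL-6R, Alas2 (-0.01) was 0.02 with normexp and 0.06 with quantile normalization, and Cldn13 (0.1) was -0.01 and -0.07. The Hemgn repeat probe was -0.04 between hosts under control antibody and 0.16 in the difference between antibody effects with quantile normalization. Leaving out each array, the host difference under anti-IL-6R ran -0.26 to 0.25 for Alas2, -0.53 to 0.73 for Cldn13, -0.44 to 0.35 for Slc38a5, -0.13 to 0.35 for Car2, -0.2 to 0.58 for Slc4a1, -0.23 to 0.72 for both Ahsp and the brighter Rhd probe, -0.02 to 0.26 for the dimmer Rhd probe, -0.17 to 0.67 for Epb42 and -0.56 to 0.22 for the Hemgn probe without the repeat. Likewise the antibody difference in tumour-bearing mice ran -1.2 to 0.18 for Alas2 and -0.01 to 0.11 for the Hemgn repeat probe, whose difference between antibody effects ran -0.08 to 0.03.

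No paired analysis was possible because the labels do not say which arrays of different groups came from the same experiment, and the groups share no replicate number. With 2 arrays a group, a group left with 1 array was taken to vary like the others. Signals of Cldn13, Epb42, Slc38a5 and the dim Hemgn probe near background limit the size of their changes.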
